A study of Mus musculus with 76 samples.

Results

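Regional and cell-class programs of the E17.5 diencephalon were described in mice that carry a human regulatory sequence and in wild type mice. Of the 76 samples in the series, the 8 RNA-seq samples from E17.5 diencephalon were used: 4 were homozygous for the humanized hs754 locus, in which human sequence had been put in place of the mouse locus by CRISPR editing, and 4 were wild type. All were C57BL/6J, and each replicate pooled the diencephalon of 3 embryos of a litter. The programs were 27 gene lists with 456 genes in all, for regions (thalamus, habenula, prethalamus, hypothalamus), for cell classes (choroid plexus, meninges, ependyma, glia, vessels, blood), for synapse, neurons and cell cycle, and for neighbouring tissues. Of these genes, 406 had enough counts to be tested, among 18763 genes tested over the whole table. Expression is given as CPM (counts of a gene per megaread of the TMM-scaled library). The level of a list in a sample is the mean over its tested members of log2 CPM minus the mean of that gene over the 8 samples, so 0 is the average sample and 1 is a doubling. The edited sequence is regulatory and no gene was removed, so the counts hold no direct check of the genotype labels.

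The diencephalon gives rise to the thalamus, whose glutamatergic relay neurons project to the cortex, to the habenula above it, to the largely GABAergic prethalamus, and, in the wide sense used for dissections, to the hypothalamus with its peptide-secreting neurons. Each region is set up by its own transcription factors. The tissue also holds cells that are not diencephalic neurons: the choroid plexus of the third ventricle, which secretes cerebrospinal fluid, the meninges on the surface, vessels, microglia and immature glia. In bulk tissue, fewer cells of a type and less RNA per cell cannot be told apart, and the amount of choroid plexus, meninges or pineal in a pool can also depend on the dissection.

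One library stood apart from the other 7, and the list medians and most of the genes below are given with and without it. In wild type replicate 1, genes of high GC content had more reads and genes of low GC content fewer: its log2 level was higher by 1.11 for every 10 percentage points of exonic GC content, whereas the slopes of the other 7 libraries lay between -0.45 and 0.06. In the tenth of genes with the lowest GC content its median deviation from the gene mean was -1.25 (log2), and in the tenth with the highest it was 0.91. The mean GC content of its counted reads was 49.9%, against 46.6% to 47.7% in the others, and 4.29% of its reads fell on no annotated feature, against 8.73% to 12.2%.

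The mean GC slope was -0.17 ± 0.23 (SD, n = 4) in humanized and 0.17 ± 0.62 (SD, n = 4) in wild type libraries, a difference that did not pass an exact two-sided permutation test over the 70 regroupings of the samples (p = 0.4). Without wild type replicate 1 the wild type mean was -0.14 ± 0.07 (SD, n = 3). The GC tilt of that library was nevertheless carried into the fold changes: the median log2 fold change (humanized over wild type) went from 0.29 in the tenth of genes with the lowest GC content to -0.37 in the highest, and from 0.04 to -0.03 when the library was left out. Slopes on exonic length differed by 0.01 log2 per doubling between the genotypes (exact two-sided permutation p = 0.8).

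**Figure D1:**
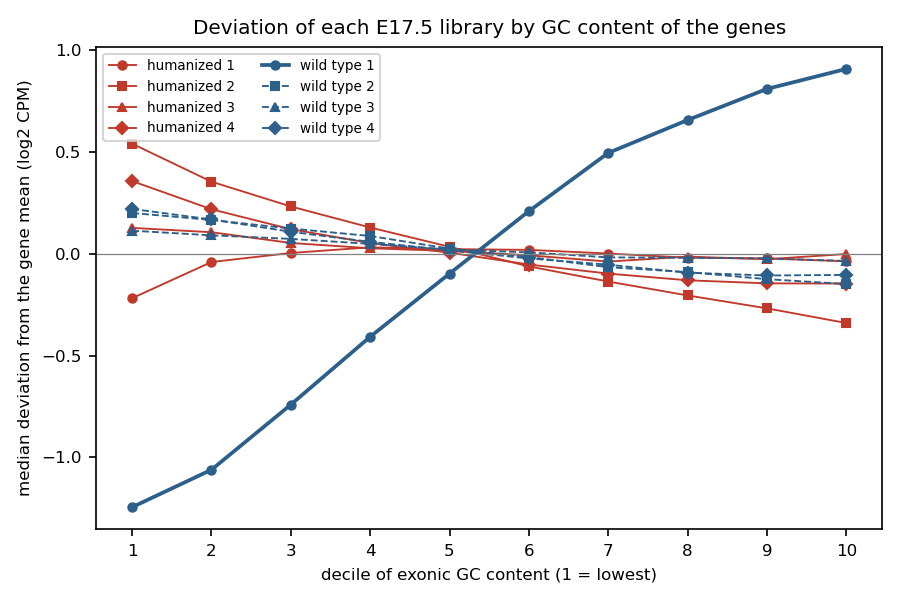
Median deviation of each library from the gene mean (log2 CPM, vertical axis) in 10 equal groups of genes ordered by exonic GC content (horizontal axis, 1 is the lowest). Wild type replicate 1 runs from -1.25 to 0.91, and the other 7 lines stay between -0.34 and 0.54.

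The lists hold genes of very different base composition. The members with the lowest and the highest exonic GC content of the thalamus list (Foxp2 and Lhx2) and of the hypothalamus transcription factor list (Sim1 and Vax1) are shown by 60 bases from the middle of their longest coding exon. The sequences are from GRCm39, written 5′ to 3′ on the coding strand, with G and C in capitals:
Foxp2, chr6:15394715-15394774, plus strand, coding exon 9: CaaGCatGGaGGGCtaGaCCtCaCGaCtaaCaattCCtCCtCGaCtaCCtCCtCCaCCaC
Lhx2, chr2:38244632-38244691, plus strand, coding exon 3: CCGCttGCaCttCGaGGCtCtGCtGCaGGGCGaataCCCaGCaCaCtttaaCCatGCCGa
Sim1, chr10:50860040-50860099, plus strand, coding exon 11: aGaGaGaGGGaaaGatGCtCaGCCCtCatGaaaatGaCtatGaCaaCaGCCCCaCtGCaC
Vax1, chr19:59154884-59154943, minus strand, coding exon 3: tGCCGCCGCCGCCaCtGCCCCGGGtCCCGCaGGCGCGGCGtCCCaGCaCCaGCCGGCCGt
Over all exonic bases, untranslated parts included, the GC content was 39.1% for Foxp2, 59.4% for Lhx2, 39.9% for Sim1 and 65.3% for Vax1. The windows, all coding, held 55%, 58.3%, 50% and 83.3% G and C, so the windows of Foxp2 and Sim1 are richer in G and C than their whole exons. The level in wild type replicate 1 over the mean of the other 3 wild type libraries was -1.08 (log2) for Foxp2 and -1.54 for Sim1, and 0.74 for Lhx2 and 1.13 for Vax1. Genes of the same list thus lay on opposite sides of the other libraries in wild type replicate 1.

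The spread between pools was set by the same library. Over the 10205 genes with a mean of at least 10 CPM, the SD of the log2 difference between a pair of libraries was 0.88 to 1.19 for pairs that held wild type replicate 1. It was 0.18 to 0.41 for all pairs without it, in which the values between genotypes (0.18 to 0.41) spanned those within genotypes (0.22 to 0.41). The first principal component took 82.4% of the variance with all 8 libraries and 40.3% without wild type replicate 1. Removing from each library its median deviation in 20 bins of GC content (here called GC offsets) lowered the SD of the pairs with wild type replicate 1 to 0.57 to 0.70, so this library stayed apart after its GC tilt was taken off. The biological coefficient of variation was 0.29 with 8 libraries, 0.21 with GC offsets, 0.16 without wild type replicate 1 and 0.14 with both.

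Other properties of the libraries also differed. Counts on genes were 16414369 to 19509897 in humanized and 19090571 to 24272569 in wild type libraries. Reads on no gene, unmapped reads included, made up 56.8% ± 1.3 (SD, n = 4) of the humanized and 52.0% ± 2.9 (SD, n = 4) of the wild type libraries with no overlap. The exact two-sided permutation p of 0.0286 is the smallest that 4 against 4 allows. Most of these reads were unmapped: 42.7%, 40.7%, 44.9% and 38.3% of all reads in humanized and 38.4%, 38.3%, 36.3% and 37.9% in wild type replicates 1 to 4, with overlap. The sex of the pools was not balanced. The Y-linked Eif2s3y had 8.07, 74.9, 96.5 and 33.8 CPM in humanized replicates 1 to 4 and 0, 35.1, 0.10 and 28.4 CPM in wild type replicates 1 to 4. Xist, the RNA that coats the inactive X chromosome, had 595, 5.465, 8.04 and 1471 CPM in humanized and 415, 588, 1676 and 1237 CPM in wild type pools. Thus wild type replicates 1 and 3 had almost no Y-linked RNA, humanized replicates 2 and 3 had little Xist, and the other 4 pools had both. The part of depth and sex in the list values was not tested beyond a fit with Y-linked expression as a covariate.

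No gene was called different between the genotypes. With Benjamini-Hochberg adjustment, the quasi-likelihood test of edgeR called 0 of 18763 genes (0% called), and the lowest adjusted p was 0.808. At an unadjusted p under 0.05 it gave 207 genes, 54 higher (0.288% of genes tested) and 153 lower (0.815%) in humanized embryos, and 717 with the replicate number as a block. DESeq2 called 1 of 37247 genes (0.00268%), the long non-coding RNA 4931408D14Rik, which is in no list. The 4 humanized samples lay above the 4 wild type samples for 82 genes (0.437%) and below them for 150 genes (0.799%).

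Among the 406 tested members of the lists, 0 were called. Unadjusted p was under 0.05 for 10 members (2.46%), and all 10 had lower values in humanized embryos: Gfap and Apoe of the astrocyte list, Ptgds, Col1a1 and Slc13a4 of the meninges list, Slc32a1, Avp, Csf1r, Sox18 and Ier2. The genotypes did not overlap for 4 members. Isl1, Meis2 and Bcl11b were above in humanized samples, and the growth factor gene Igf2, in the meninges list, was below. All 4 overlapped after the median deviation by GC content was taken off each library, although the log2 fold change of Bcl11b was larger with GC offsets (0.40) than without them (0.27). The Y-linked and Xist lists are left out of the summaries that follow, which leaves 25 lists.

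Most lists had their highest level in the GC-tilted library. Wild type replicate 1 had the highest level of the 8 libraries in 17 of the 25 lists and the lowest in 3. Over the 25 lists, its level went with the median GC content of the members (Pearson's r = 0.60, Spearman's rho = 0.61), as a description across lists that share this library. The median log2 fold change of the lists went less closely with GC content. Pearson's r was -0.28 and Spearman's rho -0.17 with all 8 libraries, and they were 0.42 and 0.34 with GC offsets. The median log2 fold change was below 0 in 20 lists with all 8 libraries, 16 with GC offsets, 15 without wild type replicate 1 and 14 with both, beside a median over all genes tested of -0.03, -0.01, -0.01 and 0.00. In 7 of the 25 lists the sign of the median was not the same under all 4 settings: hypothalamus transcription factors, presynapse, neurons, erythroid, midbrain and hindbrain, muscle and cartilage, and immediate early genes. Between samples with the same replicate number, the humanized level was the lower one in all 4 pairs for 4 lists (hypothalamus neuropeptides, astrocytes and radial glia, oligodendrocyte lineage and hypoxia response) and the higher one in all 4 pairs for 0 lists, and after GC offsets for 3 lists each way. The labels do not say that a shared number marks a shared litter or day.

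**Figure D2:**
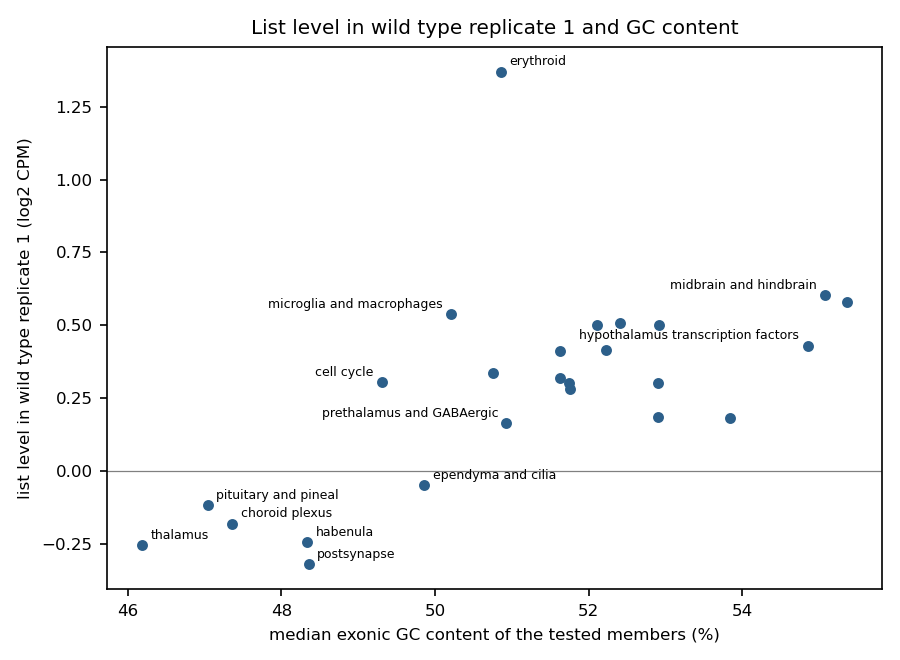
Level of each of 25 lists in wild type replicate 1 (vertical axis, log2 CPM relative to the mean of the 8 libraries) against the median exonic GC content of its tested members (horizontal axis, %). The thalamus list, at 46.2% GC, lies at -0.25 and the hypothalamus transcription factor list, at 54.9%, at 0.43, while the erythroid list lies above the others at 1.37.

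**Figure D3:**
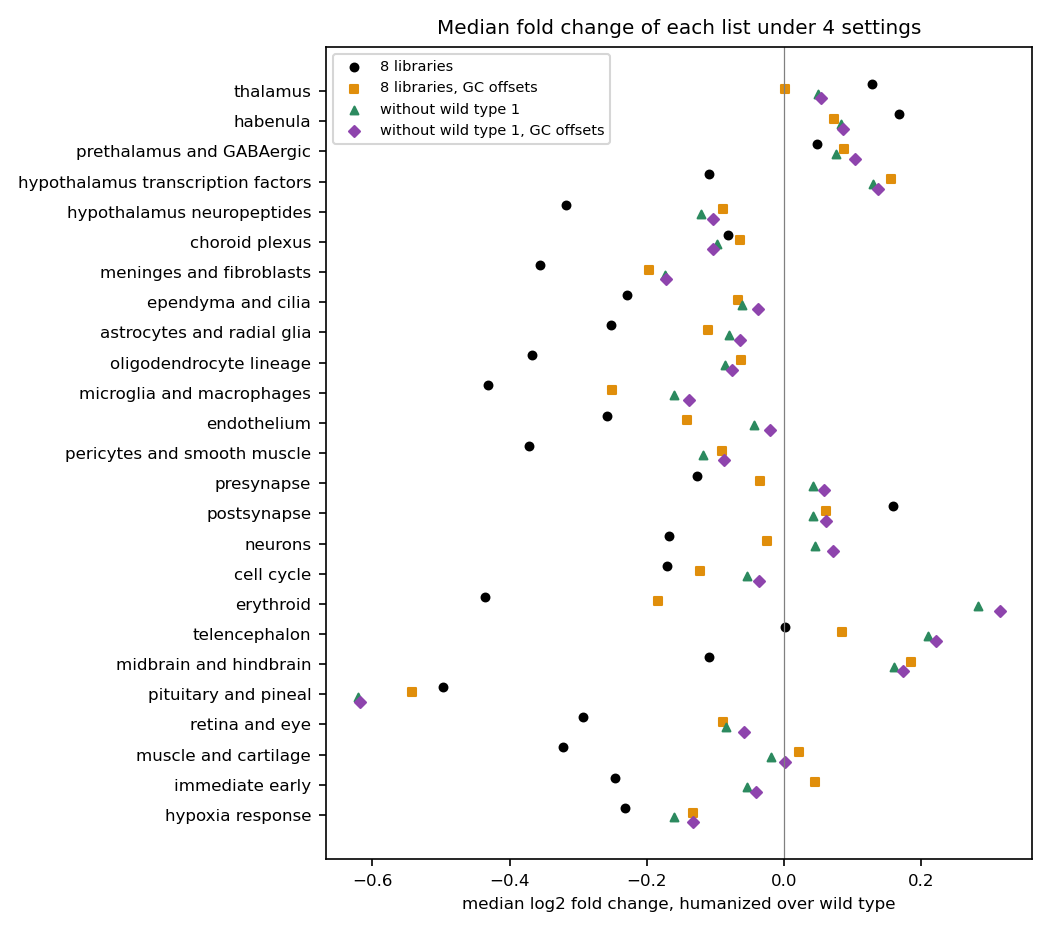
Median log2 fold change of each list (humanized over wild type, horizontal axis) with all 8 libraries, with GC offsets, without wild type replicate 1, and with both changes. The hypothalamus transcription factor list moves from -0.11 to between 0.13 and 0.16, and the meninges list stays at or below -0.17.

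Thalamus genes differed between the genotypes by less than the spread between pools. Its level in the pools was 0.04, 0.16, -0.13 and 0.12 in humanized replicates 1 to 4 and -0.25, 0.09, -0.03 and 0.01 in wild type replicates 1 to 4. The genotypes overlapped, with wild type replicate 1 the lowest. Over the 20 members, all of them tested, the median log2 fold change was 0.13, with 13 higher in humanized embryos, and it was 0.00 with GC offsets, 0.05 without wild type replicate 1 and 0.05 with both.

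Tcf7l2, the Wnt effector that marks postmitotic thalamus and habenula, was the most abundant member. It had 1231, 1273, 1054 and 1308 CPM in humanized and 1324, 1203, 1142 and 973 CPM in wild type samples. The genotypes overlapped, with a log2 fold change of 0.07 (SE 0.17) and an unadjusted p of 0.696 from edgeR's model over all genes, and 0.13 without wild type replicate 1.

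Calb2, which encodes the calcium-binding protein calretinin, had the largest difference of the list. Its CPM was 135, 115, 114 and 117 in humanized samples and 287, 117, 129 and 132 in wild type samples. The value of wild type replicate 1 was above any other, and the remaining 7 overlapped. The log2 fold change was -0.47 (SE 0.28) with this library and -0.08 without it. Rora, Foxp2, Cdh6, Plcb4, Prox1 and Slc17a6, which encodes the vesicular glutamate transporter of these neurons, had log2 fold changes of 0.29 to 0.44 with all libraries, and 0.02 to 0.19 without wild type replicate 1. With all libraries, 7 of the 20 members went the other way. Besides Calb2, these included Slc6a4 (-0.47, and -0.38 without wild type replicate 1), Rgs16 (-0.355 and -0.07) and Gbx2 (-0.27 and 0.05).

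In the habenula list the median log2 fold change of the 12 members was 0.17, and 0.07 to 0.09 under the other 3 settings. Its highest member, the protocadherin Pcdh10, had 340, 424, 261 and 310 CPM in humanized and 192, 344, 250 and 316 CPM in wild type samples. The ranges overlapped (log2 fold change 0.28, SE 0.23, and 0.13 without wild type replicate 1). Its largest difference was in the Wnt inhibitor Wif1 (-0.33, SE 0.19, and -0.23 without wild type replicate 1).

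Prethalamic and GABAergic genes lay slightly higher in humanized embryos once the GC tilt was removed. The level of the 16 members after GC offsets was 0.01, 0.08, 0.02 and 0.06 in humanized and -0.11, 0.01, -0.03 and -0.04 in wild type replicates 1 to 4. All 4 humanized pools lay above all wild type pools, with a difference of 0.09 and a pooled SD of 0.04. The margin was very narrow: 0.0126 in humanized replicate 1 against 0.0096 in wild type replicate 2. Before the offsets the genotypes overlapped (difference -0.01, pooled SD 0.08), and with wild type replicate 1 left out but no offsets they did not (0.05, pooled SD 0.02). There too the margin was very narrow, -0.0317 in humanized replicate 2 against -0.0343 in wild type replicate 3. The median log2 fold change was 0.05, 0.09, 0.08 and 0.10 under the 4 settings, while the mean in place of the median gave -0.05 with all libraries.

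The members of this list did not move as 1 group. Isl1 and Meis2, homeobox genes of differentiating ventral forebrain neurons, were the members without overlap: Isl1 had 53.1 to 62.4 CPM in humanized and 45.0 to 52.1 in wild type samples, and Meis2 had 105 to 123 and 78.2 to 105 CPM (104.9 the lowest humanized and 104.6 the highest wild type value). With GC offsets both overlapped, and the log2 fold change went from 0.24 to -0.10 for Isl1 and from 0.22 to 0.04 for Meis2. Slc32a1, the vesicular GABA transporter, went the other way. It had 20.8, 13.4, 17.97 and 15.8 CPM in humanized and 43.4, 21.4, 19.9 and 20.7 CPM in wild type samples, which overlapped only in humanized replicate 1. Its log2 fold change was -0.63 (SE 0.28, unadjusted p = 0.0448 in edgeR's model), and -0.29 without wild type replicate 1. Gad1, which makes GABA and was the most abundant member, had a log2 fold change of 0.04 (SE 0.16), and -0.02 without wild type replicate 1.

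The hypothalamus transcription factors were among the lists whose direction turned with the processing. With all 8 libraries its 27 tested members had a median log2 fold change of -0.11, with 8 higher in humanized embryos. It was 0.16 with GC offsets, 0.13 without wild type replicate 1 and 0.14 with both, and 24 of the 27 members were higher under each of the 3. Over all genes tested, 47.5%, 48.7%, 48.1% and 50.4% were higher under the 4 settings. The list had the third highest GC content (median 54.9%, against 48.2% over all genes tested), and 18 of its 27 members had their highest value in wild type replicate 1. Rax, a factor of the early hypothalamus and of tanycytes, had too few counts to be tested.

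By pool, the level was 0.00, -0.11, 0.07 and -0.02 in humanized and 0.43, -0.13, -0.06 and -0.18 in wild type replicates 1 to 4. After GC offsets it was 0.04, 0.09, 0.08 and 0.08 in humanized and -0.10, -0.03, -0.04 and -0.11 in wild type pools. Before offsets the genotypes overlapped, and after them every humanized pool lay above every wild type pool, with a difference of 0.14 and a pooled SD of 0.03. With wild type replicate 1 left out and no offsets, the difference was 0.11 (pooled SD 0.07) and humanized replicate 2 overlapped the wild type range. No member passed the test under any setting, and no test was made of the list.

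Nkx2-1, which specifies the ventral hypothalamus, had 35.2, 35.1, 43.1 and 38.5 CPM in humanized and 63.9, 32.4, 39.4 and 31.6 CPM in wild type samples. The highest of the 8 was wild type replicate 1, and the others overlapped. The log2 fold change was -0.14 with it and 0.14 without it. Otp, needed for neuroendocrine neurons, had -0.08 and 0.19 on the same scale. Foxb1, a mammillary gene, had -0.11 and 0.25.

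Onecut2 and Sim1, with 42.6% and 39.9% exonic GC content, stayed above 0 without wild type replicate 1. Onecut2, the most abundant member, had 79.7, 131, 77.9 and 98.1 CPM in humanized and 51.3, 108, 71.0 and 71.4 CPM in wild type samples. The ranges overlapped, with wild type replicate 1 the lowest (log2 fold change 0.36, SE 0.26, and 0.20 without that library). Sim1, which specifies paraventricular neurons together with Otp, had 0.34 with all libraries and 0.07 without wild type replicate 1. Nkx2-4, Bsx and Nr0b1 were the members below 0 under all 4 settings. Nkx2-4, with a high GC content of 64.8%, had the largest absolute log2 fold change with all libraries (-0.38, SE 0.26, and -0.09 without wild type replicate 1).

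Neuropeptides of the hypothalamus had lower values in humanized embryos under every setting shown, by a median log2 fold change of -0.32 over 19 tested members with all libraries and -0.09 to -0.12 otherwise. The list level was -0.04, -0.34, 0.03 and 0.01 in humanized and 0.19, -0.22, 0.22 and 0.15 in wild type replicates 1 to 4. Replicate 2 was the lowest pool of each genotype. The ranges of the genotypes overlapped, while the humanized pool was the lower one in each of the 4 same-numbered pairs (3 of 4 after GC offsets). Avp, the vasopressin gene, had 1.87, 1.47, 1.78 and 1.16 CPM in humanized and 4.12, 1.20, 3.27 and 2.82 CPM in wild type samples. Wild type replicate 2 lay within the humanized range and the other 3 above it (log2 fold change -0.86, SE 0.37, unadjusted p = 0.0406 in edgeR's model, and -0.63 without wild type replicate 1). Tac1, the substance P precursor and the most abundant member, had 0.02 (SE 0.26), and -0.17 without wild type replicate 1. Hcrt, Oxt and Vip had too few counts, and Kiss1 was not matched by symbol.

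The choroid plexus varied more between pools than between genotypes. The level of its 19 tested members was -0.47, 0.13, 0.70 and -0.54 in humanized and -0.18, 0.40, -0.30 and 0.26 in wild type replicates 1 to 4. The highest and the lowest pools were both humanized, so that the range over the 8 pools was 1.24 (log2), while the genotypes differed by -0.09 with a pooled SD of 0.47. GC offsets left the range at 1.24 and changed the difference to -0.11. A median log2 fold change of -0.08 was found with all libraries, and -0.07 to -0.10 under the other 3 settings, with 5 to 7 of the 19 members higher. Its sign rested on single pools: the median was 0.07 without humanized replicate 1, 0.08 without humanized replicate 4, 0.09 without wild type replicate 2 and 0.01 without wild type replicate 4, and it was -0.27 without humanized replicate 3, -0.21 without wild type replicate 3 and -0.38 with the Y-linked covariate.

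Ttr, which encodes transthyretin and is the most abundant transcript of choroid plexus epithelium, had 94.4, 164, 457 and 89.6 CPM in humanized and 201, 249, 134 and 282 CPM in wild type samples. Humanized replicate 3 was above every wild type pool and humanized replicates 1 and 4 below every one. The log2 fold change was -0.11 (SE 0.48), and -0.14 without wild type replicate 1, with an adjusted p of 0.932 (edgeR's quasi-likelihood test, Benjamini-Hochberg) and a range of 0.646 to 1 over the alternatives.

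Most members of the list shared with Ttr the high value in humanized replicate 3. In 12 of the 19 members, humanized replicate 3 had the highest value. Clic6, an intracellular chloride channel, had 5.95, 10.9, 20.9 and 5.70 CPM in humanized and 7.74 to 16.6 CPM in wild type samples. Kcne2, a potassium channel subunit of the epithelium, had 2.27, 2.82, 6.91 and 1.29 CPM and 1.27, 5.51, 3.36 and 4.71 CPM. Both again put humanized replicate 3 highest, but Kcne2 was lowest in wild type replicate 1, where Ttr was not. Genes that other cells share varied less, such as Otx2, a transcription factor also used elsewhere in the forebrain and midbrain, with 30.9 to 42.3 CPM in humanized and 31.1 to 39.9 CPM in wild type samples. The coagulation factor gene F5 had the largest log2 fold change (0.39, SE 0.30, and 0.51 without wild type replicate 1).

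**Figure D4:**
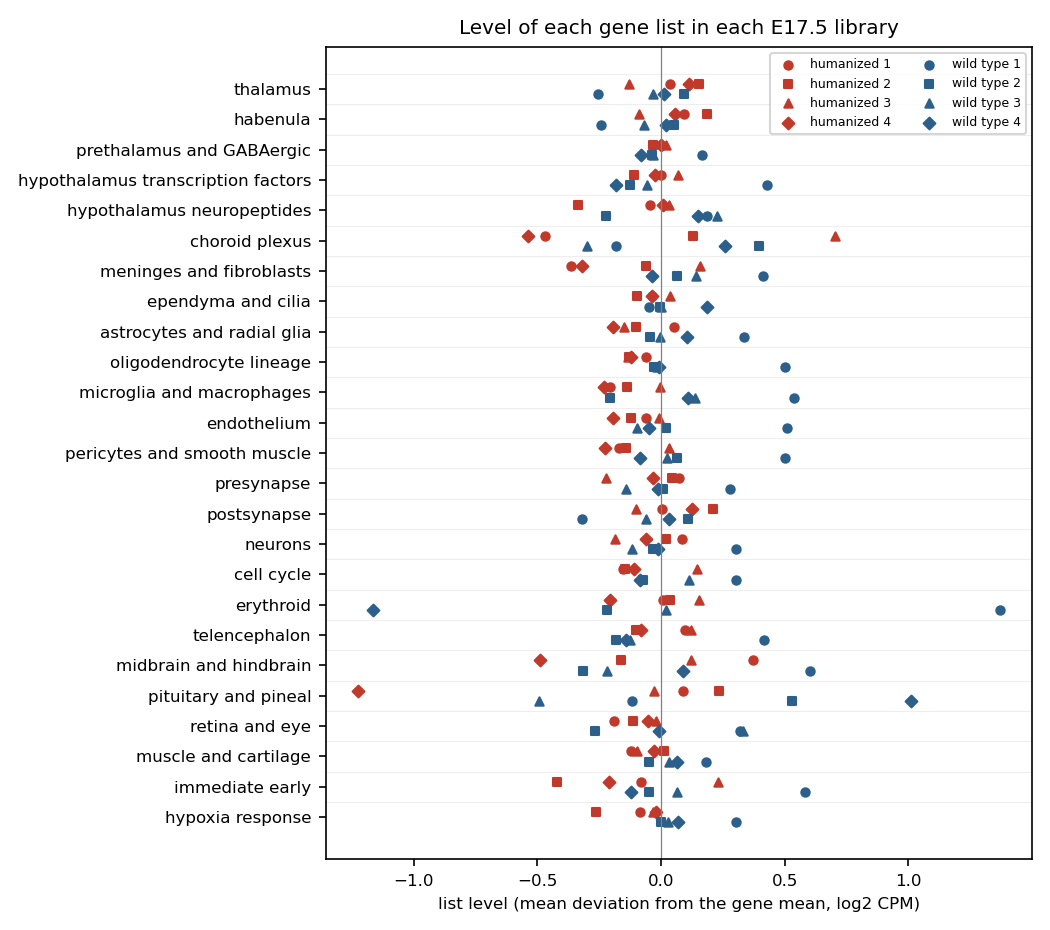
Level of each list (horizontal axis, mean deviation from the gene mean in log2 CPM) in each of the 4 humanized (red) and 4 wild type (blue) libraries, without GC offsets, with the replicate given by the marker shape. Wild type replicate 1 is the highest point in 17 of the 25 rows, and the choroid plexus row runs from -0.54 to 0.70 within humanized pools.

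Meningeal and fibroblast genes had lower values in humanized embryos under every setting shown. Over the 18 members, all tested, the median log2 fold change was -0.36 with 2 members higher. It was -0.20 with GC offsets (2 higher), -0.17 without wild type replicate 1 (1 higher) and -0.17 with both (1 higher). Its level in the pools was -0.36, -0.06, 0.16 and -0.32 in humanized and 0.41, 0.07, 0.14 and -0.03 in wild type replicates 1 to 4. Humanized replicates 1 and 4, the lowest pools for choroid plexus, were the lowest here too, and humanized replicate 3, the highest for choroid plexus, was the second highest, so the genotypes overlapped. With wild type replicate 1 left out the difference was -0.20 with a pooled SD of 0.20.

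Ptgds, a prostaglandin D synthase made by meningeal cells and choroid plexus, had 92.2, 82.1, 118 and 83.9 CPM in humanized and 205, 109, 169 and 147 CPM in wild type samples. Only humanized replicate 3 and wild type replicate 2 overlapped. The log2 fold change was -0.74 (SE 0.22, unadjusted p = 0.00689), and -0.60 without wild type replicate 1. Its adjusted p was 0.808 (edgeR's quasi-likelihood test, Benjamini-Hochberg) and ran from 0.599 to 1 over the alternatives. Ptgds, Gfap and Crabp1 were singled out with earlier results of these samples known, so their low unadjusted p is no independent support.

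Col1a1, a fibrillar collagen gene, had 55.5 to 67.1 CPM in humanized samples and 137, 77.6, 75.0 and 63.2 CPM in wild type samples. Its log2 fold change was -0.55 (SE 0.24) and -0.26 without wild type replicate 1. Slc13a4, a sulfate transporter of meninges and choroid plexus, had 5.14, 6.17, 7.18 and 4.10 CPM and 11.3, 8.79, 6.25 and 7.25 CPM (-0.57, SE 0.25, and -0.40 without wild type replicate 1). In both genes the genotypes overlapped at their edges. Col3a1, the most abundant member, had a log2 fold change of -0.35 (SE 0.21), and -0.18 without wild type replicate 1.

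Glial lists had lower values in humanized embryos, by less when wild type replicate 1 was left out. For the 30 genes of astrocytes and radial glia, all tested, the median log2 fold change was -0.25, and it was -0.11 with GC offsets, -0.08 without wild type replicate 1 and -0.06 with both. By pool, the level was 0.05, -0.10, -0.15 and -0.19 in humanized and 0.34, -0.04, -0.01 and 0.11 in wild type replicates 1 to 4. Humanized replicate 1 overlapped the wild type pools, and the humanized pool was the lower one in all 4 same-numbered pairs, also after GC offsets. Of the 30 members, 25 had lower and 5 higher values in humanized embryos with all libraries, and 8 were higher without wild type replicate 1. In 20 of the 30 members wild type replicate 1 had the highest value.

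Gfap, the intermediate filament of astrocytes, was low at this age. It had 3.88, 4.11, 2.54 and 2.88 CPM in humanized and 7.94, 5.72, 4.08 and 7.57 CPM in wild type samples. Only humanized replicate 2 and wild type replicate 3 overlapped. The log2 fold change was -0.92 (SE 0.27, unadjusted p = 0.00671) and -0.80 without wild type replicate 1, with an adjusted p of 0.808 (edgeR's quasi-likelihood test, Benjamini-Hochberg; 0.599 to 1 over the alternatives).

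Other astrocyte genes did not share the size of this difference, although 25 of the 30 members, Gfap included, were lower with all libraries. Aqp4, the water channel of astrocyte endfeet, had log2 fold changes of 0.18 with all libraries and -0.13 without wild type replicate 1. Slc1a2 and Slc1a3, which encode glutamate transporters, had 0.30 and -0.01, then 0.06 and 0.00. Apoe, a lipid carrier gene, had 90.5, 68.3, 70.3 and 78.2 CPM in humanized and 186, 77.4, 90.5 and 111 CPM in wild type samples, with wild type replicate 1 highest and overlap among the rest (-0.60, SE 0.27, and -0.28 without that library). Fabp7, a fatty acid binding protein of radial glia and the most abundant member, had 105 CPM in wild type replicate 1 and 324 to 641 CPM in the other 7 libraries.

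The oligodendrocyte lineage list was 1 of the 2 lists without overlap before GC offsets. Its level was -0.06, -0.13, -0.14 and -0.12 in humanized and 0.50, -0.03, -0.02 and -0.01 in wild type replicates 1 to 4. All humanized pools lay below all wild type pools, also with wild type replicate 1 left out (difference -0.09, pooled SD 0.03). After GC offsets humanized replicate 2, at 0.02, lay inside the wild type range of 0.00 to 0.08. Its 16 tested members had a median log2 fold change of -0.37, and -0.06 to -0.09 under the other settings. Sox10, which drives the lineage, had 3.93, 3.29, 3.18 and 4.23 CPM in humanized and 10.8, 2.86, 5.19 and 5.96 CPM in wild type samples. Wild type replicate 2 was the lowest of all (-0.76, SE 0.35, and -0.36 without wild type replicate 1). The proteoglycan Cspg5, also made by neurons, had 451 CPM in wild type replicate 1 and 193 to 236 CPM in the others.

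Ependyma and cilia genes had a median log2 fold change of -0.23 over 13 tested members and -0.04 to -0.07 under the other settings. Foxj1, the regulator of motile cilia, had 13.2, 11.8, 14.6 and 11.1 CPM in humanized and 38.3, 13.0, 10.3 and 12.5 CPM in wild type samples. Of the 8, wild type replicate 1 alone was high, so that the log2 fold change of -0.55 (SE 0.38) became 0.08 without it.

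Microglia and macrophage genes had the lowest median of the glial and vascular lists, -0.43 over 20 tested members, and it was -0.25 with GC offsets, -0.16 without wild type replicate 1 and -0.14 with both. The list level was -0.21, -0.14, 0.00 and -0.23 in humanized and 0.54, -0.20, 0.14 and 0.11 in wild type replicates 1 to 4. Wild type replicate 2 lay among the humanized pools. Csf1r, the receptor that microglia need to survive, had 14.2, 10.7, 12.5 and 10.5 CPM in humanized and 36.8, 13.8, 16.5 and 12.9 CPM in wild type samples (-0.74, SE 0.33, and -0.27 without wild type replicate 1). C1qb, a complement subunit, had 11.96 CPM in wild type replicate 1 and 2.695 to 5.28 CPM in the others. Of the 20 tested members, 17 had lower and 3 higher values in humanized embryos with all libraries, and 5 were higher without wild type replicate 1. P2ry12, the purinergic receptor of resting microglia, was 1 of the 3 (log2 fold change 0.40, and 0.20 without that library), so its direction was opposite to that of Csf1r and most members.

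In the vessel lists the median log2 fold change was -0.26 for 22 endothelial genes and -0.37 for 12 tested genes of pericytes and smooth muscle, and without wild type replicate 1 it was -0.04 and -0.12. Kdr, the main VEGF receptor of endothelium, had 95.1, 95.7, 90.3 and 78.6 CPM in humanized and 132, 103, 78.9 and 89.6 CPM in wild type samples, which overlapped (-0.16, SE 0.19, and -0.01 without wild type replicate 1). The endothelial transcription factor Sox18 had -0.87 (SE 0.39) and -0.45 without wild type replicate 1. Rgs5, a pericyte marker, had 61.7 CPM in wild type replicate 1 and 141 to 200 CPM in the others, while Acta2, the actin of smooth muscle, had 13.1 CPM in that library and 3.93 to 8.80 CPM in the others. These 2 genes, with 40.9% and 46.6% GC, lay on opposite sides of the other libraries in wild type replicate 1. The tenth of genes with 46.6% to 48.2% GC had a median deviation of -0.10 in that library, so the high value of Acta2 ran against the GC tilt. The reason was not tested.

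Erythroid genes had the widest range of the 25 lists. The level was 0.01, 0.04, 0.15 and -0.21 in humanized and 1.37, -0.22, 0.02 and -1.16 in wild type replicates 1 to 4, so both extremes were wild type. Its 7 tested members had a median log2 fold change of -0.44, which turned to 0.28 without wild type replicate 1. Hbb-bs, an adult beta globin, had 214, 203, 367 and 232 CPM in humanized and 684, 201, 325 and 167 CPM in wild type samples, which overlapped. Globin RNA was thus unequal among the pools, and its part in the other lists was not tested.

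Neuronal and presynaptic genes had medians whose sign turned between settings, and the postsynaptic median stayed above 0 in all of them (0.01 to 0.22). The median log2 fold change with all libraries and without wild type replicate 1 was -0.17 and 0.05 for neurons (18 genes), -0.13 and 0.04 for the presynapse (22 genes), and 0.16 and 0.04 for the postsynapse (24 genes). Humanized replicate 3, the highest pool for choroid plexus, was the lowest of the 8 pools for neurons (-0.19) and for the presynapse (-0.22). Wild type replicate 3 was the second lowest in both (-0.12 and -0.14), although its choroid plexus level was -0.30.

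Tubb3, a neuronal tubulin, had 964, 709, 794 and 795 CPM in humanized and 2563, 805, 844 and 731 CPM in wild type samples. Mapt, the microtubule protein tau and the most abundant neuronal member, had 2659, 2223, 1956 and 2097 CPM and 4957, 2340, 2038 and 2045 CPM. For both, wild type replicate 1 was the highest, and without it the log2 fold change went from -0.60 to 0.04 and from -0.35 to 0.06. The presynaptic vesicle SNARE gene Vamp2 (55.0% GC) had 1068 CPM in that library, against 380 to 449 CPM in the other 7. In the postsynapse, the glutamate receptor subunit Grin2b had 0.39 (SE 0.31) and the kinase Camk2b -0.44 (SE 0.27), and without that library 0.16 and -0.07.

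The 31 cell cycle genes, all tested, had a median log2 fold change of -0.17, with 8 higher, and -0.06 without wild type replicate 1. Its level in the pools was -0.15, -0.15, 0.14 and -0.11 in humanized and 0.30, -0.07, 0.11 and -0.08 in wild type replicates 1 to 4. Replicate 3 was high in both genotypes, and the genotypes overlapped. Mcm3, a subunit of the replicative helicase, had 29.6 CPM in wild type replicate 1 and 7.90 to 12.4 CPM in the others. Rrm1, a subunit of the enzyme that makes deoxyribonucleotides, had a log2 fold change of -0.07 (SE 0.18), and 0.07 without wild type replicate 1.

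Genes of the hypoxia response lay lower in humanized embryos without overlap before GC offsets. The level was -0.08, -0.26, -0.03 and -0.02 in humanized and 0.30, 0.00, 0.03 and 0.07 in wild type replicates 1 to 4. The genotypes did not overlap with or without wild type replicate 1 (difference -0.20, pooled SD 0.13, and -0.13, pooled SD 0.09), and they overlapped after GC offsets (-0.08, pooled SD 0.08). None of the 11 tested members was higher in humanized embryos without wild type replicate 1, and 2 were with it. Ddit4, a stress-induced inhibitor of mTORC1, had 27.2, 19.4, 29.9 and 24.4 CPM in humanized and 58.4, 25.2, 31.9 and 33.4 CPM in wild type samples (-0.56, SE 0.27, and -0.26 without wild type replicate 1). The immediate early genes, induced within minutes by handling or activity, ranged from -0.42 in humanized replicate 2 to 0.58 in wild type replicate 1 with overlap, and their median log2 fold change turned from -0.25 to 0.04 with GC offsets.

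Lists of neighbouring tissues, apart from the telencephalon, had 2 to 8 members with enough counts. For the telencephalon list, 10 of 11 tested members were higher in humanized embryos without wild type replicate 1 and 11 of 11 with GC offsets as well, with medians of 0.21 and 0.22, against 0.00 with all libraries. The genotypes did not overlap when that library was left out (difference 0.16, pooled SD 0.09). With all 8 libraries they overlapped, before and after GC offsets. Bcl11b, a transcription factor of deep-layer cortical and striatal neurons that is also expressed outside the telencephalon, had 65.0, 64.8, 53.2 and 54.2 CPM in humanized and 51.1, 53.1, 44.3 and 48.4 CPM in wild type samples. The genotypes did not overlap, and the log2 fold change was 0.27 (SE 0.16, unadjusted p = 0.128 in edgeR's model). For Bcl11b it was 0.40 with GC offsets, 0.28 without wild type replicate 1 and 0.31 with both. The unadjusted p in edgeR's model was then 0.0159, 0.0323 and 0.0215, and no gene passed the adjustment under these settings.

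Of the 14 genes of pituitary and pineal, only Tph1 and Crx, both made in the pineal, passed the filter. Tph1, an enzyme of serotonin synthesis, had 6.46, 9.87, 5.99 and 3.43 CPM in humanized and 4.58, 10.7, 5.62 and 13.8 CPM in wild type samples, so that humanized replicate 4 was the lowest and wild type replicate 4 the highest. The 6 tested midbrain and hindbrain genes had a median log2 fold change of -0.11, which turned to 0.18 with GC offsets, 0.16 without wild type replicate 1 and 0.17 with both. Those of retina and eye (5 tested) had -0.29, and -0.08 without that library, and those of muscle and cartilage (8 tested) had -0.32, and -0.02.

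Crabp1, a carrier of retinoic acid found in subsets of developing neurons and mesenchyme, was at the low end of the tested range. It had 1.06, 1.06, 1.78 and 0.92 CPM in humanized and 3.92, 2.13, 2.88 and 1.81 CPM in wild type samples. The genotypes did not overlap, though the highest humanized and the lowest wild type value were next to each other. The log2 fold change was -1.15 (SE 0.34, unadjusted p = 0.00653) and -0.91 without wild type replicate 1. The adjusted p was 0.808 (edgeR's quasi-likelihood test, Benjamini-Hochberg; 0.599 to 1 over the alternatives). Gfap lies at chr11:102778159-102791738, Ptgds at chr2:25352795-25362601 and Crabp1 at chr9:54671171-54680403 (GRCm39).

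**Figure D5:**
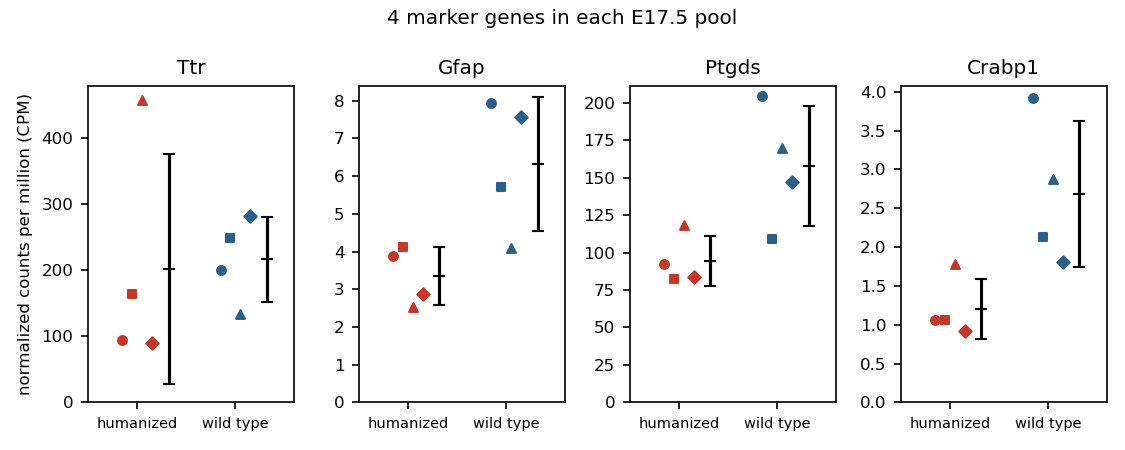
Normalized CPM of Ttr, Gfap, Ptgds and Crabp1 in the 4 humanized (red) and 4 wild type (blue) pools, with the replicate given by the marker shape and the mean ± SD (n = 4) in black beside each group. Crabp1 alone shows no overlap between genotypes, and humanized replicate 3 is the highest pool for Ttr at 457 CPM.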

How the data were processed

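RNA-seq of polyA RNA from E17.5 diencephalon was used, 4 pools per genotype. Alignment by the authors used STAR 2.7.9a (version from the submitters' processing notes), mm39 and GENCODE release 31, and they deposited raw counts of reads per gene. The unstranded column was used. Lines that name no gene, unmapped reads included (48.1% to 58.4% of reads), stayed out of library sizes and tests. GENCODE M39 on GRCm39 gave names and exonic GC content for 56236 of 56923 gene IDs (98.8%). 3 list genes (Kiss1, Pifo and Fcrls) had no match by symbol.

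Humanized and wild type were compared by edgeR 4.0.16 (filterByExpr, TMM, quasi-likelihood test, Benjamini-Hochberg adjustment at 0.05) in R 4.3.3, with DESeq2 1.42.0 as an alternative. Log2 CPM had a prior count of 2. The standard error is the absolute log2 fold change over the square root of F. Lists are described by counts and medians, with no test of a list. GC offsets used 20 bins. Named genes were the 4 markers (Ttr, Gfap, Ptgds, Crabp1), in each list the most abundant member, the one with the largest difference and those with the lowest unadjusted p, and 6 genes of the whole table. Other members were named after their values were seen. A gene that this rule would name is not reported here. The members and lists were chosen with earlier results of these data known. Nothing in the labels says that same-numbered samples share a litter. A pool is the unit of replication, so p-values set the genotype difference against the variation between pools, which edgeR estimates partly from all genes together. The fit was run on simulated counts, drawn independently for each gene, as a check of the computation only, and no result here rests on it. Figures were drawn with matplotlib. Other alternatives were another normalization, no filter, the reverse-strand column, all 16 RNA samples, the replicate block, a Y-linked covariate and leaving out each replicate. GC offsets with wild type replicate 1 left out were added after seeing the data.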

Additional observations from a re-analysis of the deposited data

Results flagged for a closer look

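In each genotype, the highest or lowest of the 4 pools was compared with the gap to its nearest neighbour (Dixon's criterion at the 95% level). Of 184 groups looked at, 24 had a pool standing apart. The groups share the same 8 libraries, and many of the genes were named for a large difference, which a single extreme pool can produce. The 24 can therefore not be set against a rate expected by chance. Wild type replicate 1 was the pool in 19 of the 24.

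Wild type replicate 1 stood apart in its GC slope (1.11 log2 per 10 percentage points, against -0.21 to -0.07 in the other 3 wild type libraries) and in the level of the oligodendrocyte lineage (0.50, against -0.03 to -0.01) and telencephalon lists (0.42, against -0.18 to -0.13). In CPM it stood apart, by a higher value than the other wild type pools, for Calb2 (287), Wif1 (13.0), Slc32a1 (43.4), Foxj1 (38.3), Tekt4 (2.49), Cspg5 (451), Csf1r (36.8), Vamp2 (1068), Camk2b (549), Mapt (4957), Tubb3 (2563), Neurod2 (12.8), Rlbp1 (22.2), Ldha (360) and Rd3 (2.90), and by a lower value for Rgs5 (61.7). Rgs5 has 40.9% exonic GC content, and the other 15 genes have 49.8% to 60.8%.

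The other pools that stood apart were wild type replicate 2 in hypothalamus neuropeptides (level -0.22, against 0.15 to 0.22), humanized replicate 3 in cell cycle (level 0.14, against -0.15 to -0.11) and in Crabp1 (1.78 CPM, against 0.92 to 1.06), and humanized replicate 1 in Calb2 (135 CPM, against 114 to 117) and Jun (37.9 CPM, against 33.3 to 33.8).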

How the results depend on the processing

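edgeR called 0 genes under every alternative and DESeq2 called 1. The number at unadjusted p under 0.05 was 207 of 18763 genes tested. It was 972 of 37248 with no filter, 862 of 20234 with all 16 samples and 750 of 19067 without wild type replicate 2. It was 82 of 19099 without humanized replicate 2, 85 of 19101 without humanized replicate 4 and 51 of 18763 with the Y-linked covariate, and the cause was not tested. With the replicate block it was 717 (744 with GC offsets), with 0 genes called. Whether the numbers pair the samples depends on the genes used: the correlation of same-numbered deviations from the genotype means was 0.67, 0.79, 0.14 and 0.42 over the 10205 genes of at least 10 CPM, all above 0.1, and 0.51, 0.56, 0.04 and 0.19 over all 18763 genes tested. After GC offsets these correlations were 0.44, 0.64, 0.35 and 0.29 over the first gene set. Over all genes tested they were then 0.33, 0.39, 0.17 and 0.09975. The gene set for this check had not been fixed, and it was run on both after the counts of the 2 fits had been seen. The block is therefore given as an alternative. In both gene sets, 2 of 4 samples correlated best with their own number. The block moved no list median by more than the spread between pools (hypothalamus transcription factors -0.07, meninges -0.32).

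Medians that moved by more than that spread (log2 fold change) were, with GC offsets, hypothalamus transcription factors 0.16, neuropeptides -0.0886, ependyma -0.0668, oligodendrocyte lineage -0.0626, pericytes -0.0899 and muscle 0.0210. With GC offsets and the replicate block they were, in the same order, 0.131, -0.0899, -0.0526, -0.0652, -0.0971 and 0.0245, with neurons -0.0081 and retina -0.0652. With GC offsets and without wild type replicate 1 they were hypothalamus transcription factors 0.14, neuropeptides -0.10, ependyma -0.0386, astrocytes -0.0640, oligodendrocyte lineage -0.0756, microglia -0.14, endothelium -0.0206, pericytes -0.0876, presynapse 0.0575, neurons 0.0716, erythroid 0.31, telencephalon 0.22, retina -0.0585 and muscle 0.00092. With the Y-linked covariate, which was lowest in wild type replicate 1 and so carries that library too, they were habenula 0.01996, hypothalamus transcription factors 0.18, neuropeptides -0.0892, ependyma -0.13, astrocytes -0.0525, oligodendrocyte lineage -0.0486, microglia -0.0895, pericytes -0.0613, neurons 0.0303, cell cycle -0.0049, erythroid 0.46, retina 0.21, muscle -0.0967 and hypoxia -0.0880. The mean gave prethalamus -0.0493 and muscle -0.20, and muscle was -0.47 with no filter and -0.12 on the reverse strand.

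Leaving out each replicate gave hypothalamus transcription factors -0.19 to 0.13, neuropeptides -0.39 to -0.12, ependyma -0.26 to -0.0608, astrocytes -0.35 to -0.0810, oligodendrocyte lineage -0.49 to -0.0868, microglia -0.46 to -0.16, endothelium -0.39 to -0.0441, pericytes -0.48 to -0.12, presynapse -0.22 to 0.0424, neurons -0.26 to 0.0454, retina -0.54 to -0.0849 and muscle -0.41 to -0.0193, and the GC slope difference -0.48 to -0.04. The ends nearest 0 or above it came without wild type replicate 1 for all of these, and the retina list had its lowest value without wild type replicate 2.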

Other observations

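Outside the lists, the 6 genes with the lowest unadjusted p whose genotypes did not overlap were Ide, Serinc5, Rd3, 4931408D14Rik, Ifitm3 and Ripk4. Ide, an insulin-degrading metalloprotease gene, had 181, 187, 129 and 159 CPM in humanized and 51.3, 86.7, 71.1 and 95.0 CPM in wild type samples. All humanized samples lay above all wild type samples, with a log2 fold change of 1.11 (SE 0.23), and 0.95 without wild type replicate 1. Serinc5, a membrane protein gene, had 30.0, 21.7, 15.5 and 32.1 CPM in humanized and 45.8, 56.6, 58.0 and 62.0 CPM in wild type samples (-1.16, SE 0.24, and -1.25 without that library). The lncRNA 4931408D14Rik had 1.82, 2.64, 2.05 and 2.33 CPM in humanized and 0, 0.52, 0.29 and 0.60 CPM in wild type samples. None passed the adjustment in edgeR's quasi-likelihood test (Benjamini-Hochberg adjusted p = 0.808 for each), and DESeq2 gave 4931408D14Rik an adjusted p of 0.0189, within a range of 0.0189 to 1 over the alternatives. Ide (chr19:37245688-37340729) and 4931408D14Rik (chr19:37232068-37241537, both GRCm39) lie next to each other. The Ide region is known to vary in copy number among C57BL/6J mice, and copy number was not analysed here. These differences were at least as large without wild type replicate 1 for Serinc5 and smaller for the other 2, and their cause was not tested.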
